A study of Mus musculus with 2 samples.

Results

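The genes described here are 7 genes that shape the upstroke, the rhythm, the repolarization and the cell-to-cell spread of the cardiac action potential: Scn4b, Hcn2, Hcn4, Kcnq1, Kcnh2, Gja5 and Gjc1. They were chosen by gene symbol, and all 7 were found among the 22882 symbols of the files, on 8 of 23424 rows. The study asked which genes depend on Med1, a subunit of the Mediator complex that links transcription factors to RNA polymerase II, in mouse heart. Heart RNA of 5 Med1fl/fl mice (control, both Med1 alleles carrying loxP sites) and of 5 csMed1-/- mice (the same floxed alleles with a Cre transgene driven by the α-myosin heavy chain promoter, which deletes Med1 in cardiomyocytes from late embryonic life) was pooled within each genotype. All mice were 23 days old, of C57BL6/J background and of mixed sex, and were untreated. Each genotype is thus 1 library without replicates, so no gene has an error between mice and no test between the genotypes was possible. Mice with the Cre transgene and without floxed alleles were not analysed here.

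A heartbeat starts in pacemaker cells, where HCN channels open on hyperpolarization and carry the inward funny current. Sodium channels then give the fast upstroke, delayed rectifier potassium channels end the action potential, and gap junctions made of connexins pass it to the next cell. HCN4 and the connexin Cx40 are best known from the sinus node, the atria and the His-Purkinje system, and Cx40 also from arterial endothelium, while the delayed rectifiers KCNQ1 and KCNH2 are the channels of inherited long QT syndromes.

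The upstream sequences of Hcn2 and Hcn4 are shown because both genes of the HCN pair were lower in csMed1-/- heart and each window holds a motif match, and that of Gja5 because it had the highest ratio of the 7 genes. They are the 250 bases before each RefSeq start (GRCm38.p6, the assembly also named mm10, plus strand), at chr10:79716384-79716633, chr9:58822699-58822948 and chr3:97032152-97032401. Capitals mark matches to the motifs given after them.
Hcn2: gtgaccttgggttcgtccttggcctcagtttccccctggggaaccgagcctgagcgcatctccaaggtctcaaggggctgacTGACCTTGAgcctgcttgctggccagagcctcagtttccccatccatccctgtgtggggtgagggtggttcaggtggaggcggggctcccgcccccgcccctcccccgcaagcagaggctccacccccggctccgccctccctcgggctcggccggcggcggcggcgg
Hcn4: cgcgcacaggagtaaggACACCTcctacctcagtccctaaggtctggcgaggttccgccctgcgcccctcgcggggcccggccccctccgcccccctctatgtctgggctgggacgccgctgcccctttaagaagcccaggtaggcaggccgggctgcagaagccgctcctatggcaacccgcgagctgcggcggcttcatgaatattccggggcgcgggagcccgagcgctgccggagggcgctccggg
Gja5: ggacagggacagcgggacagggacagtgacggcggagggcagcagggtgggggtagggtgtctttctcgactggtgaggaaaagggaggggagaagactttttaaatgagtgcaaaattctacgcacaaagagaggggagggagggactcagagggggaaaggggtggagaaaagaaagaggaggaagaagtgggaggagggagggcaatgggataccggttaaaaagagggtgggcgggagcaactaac
The RefSeq promoter table held 5 of the 7 genes, with Kcnq1 and Gjc1 not among them. In windows from 250 bases before to 50 bases after the start, 6 motifs were searched on both strands. The upstream part of the Kcnh2 window, at 24329592 to 24329841, lies inside the gene, which spans 24319589 to 24351684 on the minus strand. It is thus not the window of the outer start of Kcnh2. The ERR element TCAAGGTCA, to which estrogen-related receptors bind, occurs in the Hcn2 window at -168 to -160 (as TGACCTTGA) and in 0.423% of all 32851 windows of the same length. The T-box motif AGGTGT occurs in the Hcn4 window at -233 to -228 (as ACACCT) and in 13.7% of all windows. No member window held the PPAR-type element DR1 (a direct repeat of AGGTCA with 1 base between, in 0.0396% of all windows), the GATA site AGATAA (11.2%), the NKX2-5 site CACTTAA (2.41%) or the MEF2 consensus (0.164%). The windows of Hcn2 and Hcn4 were rich in G and C, at 72.3% and 71.7%, and that of Gja5 had 55.7%. A match to letters is a description of the sequence and no evidence of binding.

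In csMed1-/- heart 5 of the 7 genes were lower by more than 2-fold, and the other two, both connexins, were within 2-fold. With ratios centred on cardiomyocyte structural genes 4 were lower and 1 was higher, since Kcnq1 no longer passed 2-fold and Gja5 did. The values are FPKM, fragment numbers scaled to transcript length and to the size of a library, by a library scaling that is not given. Genes were held against a 2-fold threshold (called tested hereafter) where neither library was at 0 and at least one reached 1 FPKM, and all 7 did. Among the 10489 genes tested in this way 18.0% were lower and 13.6% were higher by more than 2-fold. With ratios centred on cardiomyocyte structural genes these shares were 8.17% and 31.7%. On the log2 scale the ratio of csMed1-/- to control had a median of -1.65 over the 7 genes and of -0.07 over all genes tested. Since the RNA came from heart tissue, fewer cells of a type and less RNA per cell cannot be told apart in these values. The paper does not state whether atria were part of the tissue used for RNA. Med1 itself had 3.38 FPKM in control against 0.412 FPKM in the csMed1-/- pool (ratio 0.122), the direction its label gives.

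**Figure D1:**
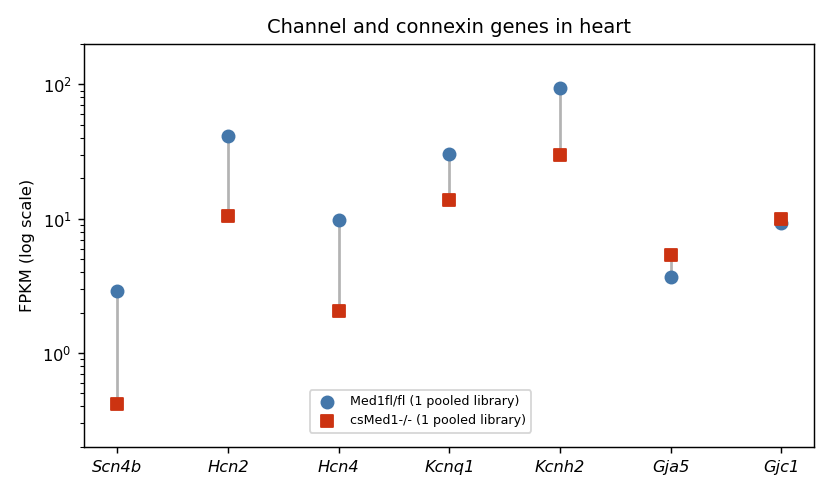
FPKM of each gene on a log axis in the Med1fl/fl library (blue circles) and the csMed1-/- library (red squares), 1 pooled library per genotype, with a grey line joining the 2 values of a gene. The red square lies below the blue circle for Scn4b, Hcn2, Hcn4, Kcnq1 and Kcnh2, above it for Gja5 (3.67 and 5.33 FPKM), and on it for Gjc1 (9.34 and 10.0 FPKM).

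No read counts were given, but low values piled up at a step that gives a rough estimate of what 1 read is worth. Among genes with 1 RefSeq transcript, 124 control values lay within 0.15 of a step from 1 read and 9 within the same distance of 0.5 of a step, and in the csMed1-/- library these numbers were 96 and 2. Near 1.5 and 2 steps the numbers were 47 and 43 in control and 46 and 39 in csMed1-/-, so no pile-up was seen at 2 reads. By this step the csMed1-/- library was about 1.44 times as deep. The reads behind each gene ranged from about 180 (Scn4b in csMed1-/-) to about 24000 (Kcnh2 in control). The 95% intervals given for the ratios are exact binomial intervals from these estimated reads. They cover counting error only, leave out the uncertainty of the step, and say nothing of the variation between mice or pools.

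Scn4b encodes the β4 subunit of voltage-gated sodium channels, which is linked to the pore-forming subunit and modifies its gating. It lies on chromosome 9 from 45138624 to 45154155 (plus strand, 5 exons). Its level was 2.91 FPKM in control against 0.420 FPKM in the csMed1-/- pool, a ratio of 0.144 (counting interval 0.122 to 0.169). This was the lowest ratio of the 7 genes, and only 2.29% of all genes tested had a lower one. Scn4b was also the least abundant of the 7 genes in both libraries. Among the 1263 genes whose geometric mean FPKM lay within 0.5 log2 units of its own, 23.5% were lower by more than 2-fold, against 18.0% over all genes. With a pseudocount of 1 FPKM its log2 ratio was -1.46 in place of -2.79.

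Other sodium channel genes were set beside it. Scn4a, the skeletal muscle pore-forming subunit, had 3.73 FPKM in control against 0.522 FPKM in the csMed1-/- pool (ratio 0.140), and Scn10a, another pore-forming subunit, had 1.81 and 0.412 FPKM (ratio 0.228). The β subunit genes Scn2b and Scn3b were below 1 FPKM in both libraries.
Rangrf, whose product MOG1 helps the cardiac sodium channel to the cell surface, had 172 FPKM in control against 21.9 FPKM in the csMed1-/- pool (ratio 0.128). Fgf13, a modulator of sodium channel inactivation, had 36.1 and 15.4 FPKM (ratio 0.428), whereas Gpd1l had 34.0 and 27.6 FPKM (ratio 0.812). Over the list of 19 sodium channel subunits and partners, 9 could be tested. Without Scn4b, 5 of the remaining 8 were lower by more than 2-fold, none was higher by as much, and their median log2 ratio was -1.47. Scn4a and Scn10a, like Scn4b, passed the filter through control alone. With 1 FPKM required in both libraries 3 of 6 were lower by more than 2-fold. Among all 9160 genes under that stricter filter 14.7% were lower and 11.3% higher by more than 2-fold. Of all 9, 7 had a ratio below 1 and 2 a ratio above 1.

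Hcn2 and Hcn4 encode the HCN channels of ventricular and nodal cells. Hcn2 (chromosome 10, 79716634 to 79736108, plus strand, 8 exons) had 41.1 FPKM in control against 10.5 FPKM in the csMed1-/- pool, a ratio of 0.256 (counting interval 0.245 to 0.267). Hcn4 (chromosome 9, 58822949 to 58863175, plus strand, 8 exons) had 9.76 and 2.04 FPKM, a ratio of 0.209 (0.195 to 0.224). Both genes passed 2-fold by a wide margin, and 5.33% and 3.86% of all genes tested had a lower ratio than Hcn2 and Hcn4. Another gene of the family, Hcn3, was hardly seen, with 0.0626 and 0.0254 FPKM. Hcn2 was 4.21 times as abundant as Hcn4 in control and 5.14 times in csMed1-/- heart. Kcne2, whose product can join HCN channels, was listed at 0 in both libraries.

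Kcnh2 and Kcnq1 encode the pore-forming subunits of the rapid and the slow delayed rectifier. Kcnh2 (chromosome 5, 24319589 to 24351684, minus strand, 15 exons) was the most abundant of the 7 genes in both libraries, with 94.2 FPKM in control against 30.0 FPKM in the csMed1-/- pool, a ratio of 0.319 (counting interval 0.311 to 0.326). Kcnq1 (chromosome 7, 143106877 to 143427050, plus strand, 16 exons) had 30.3 and 13.7 FPKM, a ratio of 0.452 (0.433 to 0.472). Kcnq1 was the nearest to the 2-fold line among the 5 lower genes, and 15.1% of all genes tested had a lower ratio. Its log2 ratio was -1.14 as deposited and -0.50 when centred on cardiomyocyte structural genes, which ends the call. Kcnh2 was 3.11 times as abundant as Kcnq1 in control and 2.19 times in csMed1-/- heart. The antisense transcript Kcnq1ot1, which overlaps Kcnq1, had 0.0361 and 0.0254 FPKM, and 4933417O13Rik, also antisense to it, 0.0723 and 0.0892 FPKM. Whether counting used the strand is not given, so reads of these genes and of Kcnq1 may not have been told apart.
Kcne1, whose product minK slows KCNQ1 and makes the slow rectifier, had 16.6 FPKM in control against 1.16 FPKM in the csMed1-/- pool (ratio 0.0698). There were 1.83 units of Kcnq1 FPKM for each unit of Kcne1 in control and 11.8 in csMed1-/- heart. Kcne4, an inhibitory partner of KCNQ1, had 0.767 and 2.37 FPKM (ratio 3.10), and Kcne1l had 0.928 and 2.07 FPKM (ratio 2.23). Kcna5, another delayed rectifier pore, had 17.8 and 10.7 FPKM (ratio 0.603). Without Kcnq1 and Kcnh2, 2 of 5 tested genes of this list were lower and 2 higher by more than 2-fold, with a median log2 ratio of -0.73. Kcne4 and Kcne1l, the 2 higher genes, reached 1 FPKM in the csMed1-/- pool alone and so passed the filter only where they were high. With 1 FPKM required in both libraries 3 genes remained, of which 2 were lower and none was higher by more than 2-fold. Over all genes under that filter the shares were 14.7% and 11.3%.

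**Figure D2:**
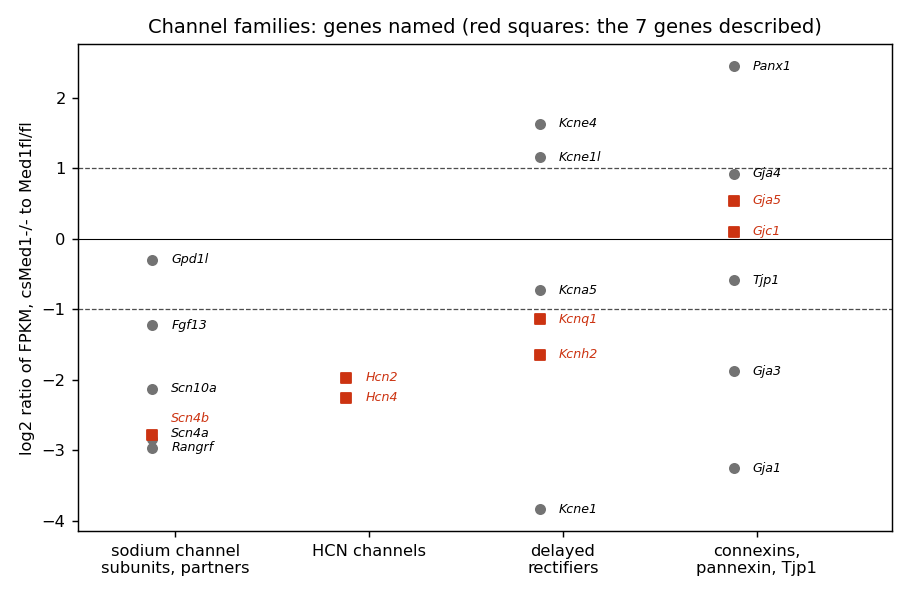
Log2 ratio of FPKM, csMed1-/- to Med1fl/fl, for tested genes of 4 lists of channel genes that the text names, with the 7 genes described as red squares, other genes as grey circles and dashed lines at 2-fold. The 5 red squares of the sodium, HCN and potassium channel lists lie below the lower line, Gja5 and Gjc1 lie between the lines, and Gja1 lies at -3.26.

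The connexin members were the exception. Gja5, which encodes the connexin Cx40 (chromosome 3, 97032402 to 97053634, plus strand, 2 exons), had 3.67 FPKM in control against 5.33 FPKM in the csMed1-/- pool, a ratio of 1.45 (counting interval 1.32 to 1.59). Gjc1, which encodes the connexin Cx45 of the nodes (chromosome 11, 102799477 to 102819686, minus strand, 3 exons), had 9.34 and 10.0 FPKM, a ratio of 1.07 (0.999 to 1.15). Both lay inside the range from the lower to the upper quartile of all genes tested, which were -0.72 and 0.55 on the log2 scale, against 0.54 for Gja5 and 0.10 for Gjc1. Centred on cardiomyocyte structural genes Gja5 stood at 1.18, past 2-fold. Under that centring 31.7% of all genes tested were higher by more than 2-fold.
The Gjc1 value is a sum over 2 rows that differed in direction. The first row had 2.75 FPKM in control against 5.39 FPKM in the csMed1-/- pool (ratio 1.96), and the second 6.60 and 4.64 FPKM (ratio 0.704). The counting interval given for Gjc1 treats the sum as 1 feature with 1 transcript length, and it holds the ratio of neither row. The files do not say which transcripts the rows stand for. Of the genes of known strand on the 8 rows before and after it, 12 of 13 lie on the plus strand for the first row and 15 of 16 on the minus strand for the second, and Gjc1 is annotated on the minus strand. The first row made up 29.4% of the sum in control and 53.7% in csMed1-/- heart. Neither row passed 2-fold, and the sign of the Gjc1 ratio depends on which of them is read.

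Gja1, which encodes the connexin Cx43, the main gap junction protein of ventricular muscle, had 53.8 FPKM in control against 5.62 FPKM in the csMed1-/- pool (ratio 0.105). Gja1 was 14.7 times as abundant as Gja5 in control and 1.06 times in csMed1-/- heart. Of the summed FPKM of these 3 connexins, which was at 0.314 of control, Gja1 held 80.5% in control and 26.8% in csMed1-/- heart. The share of Gja5 was 5.49% and 25.4%, and that of Gjc1 was 14.0% and 47.8%. With the second Gjc1 row alone the shares of Gja1 were 84.0% and 36.1%, those of Gja5 were 5.73% and 34.2%, and those of Gjc1 were 10.3% and 29.8%. In the csMed1-/- pool Gjc1 thus had the largest share of the 3 by the sum of its rows and the smallest by its second row. Gja5 and Gjc1 thus took larger shares of a smaller sum, with FPKM values within 2-fold of control.
Gja4, which encodes the connexin Cx37 of arterial endothelium, had 25.2 and 47.8 FPKM (ratio 1.90), and Gja3 had 6.55 and 1.78 FPKM (ratio 0.271). Panx1, a pannexin that forms single-membrane channels, had 1.43 and 7.85 FPKM (ratio 5.48). The junction scaffold gene Tjp1 had 4.82 and 3.20 FPKM. Without Gja5 and Gjc1, 2 of the 6 tested genes of the connexin list were lower and 2 higher by more than 2-fold, with a median log2 ratio of 0.17. The other 14 of its 22 genes were below 1 FPKM in both libraries.

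**Figure D3:**
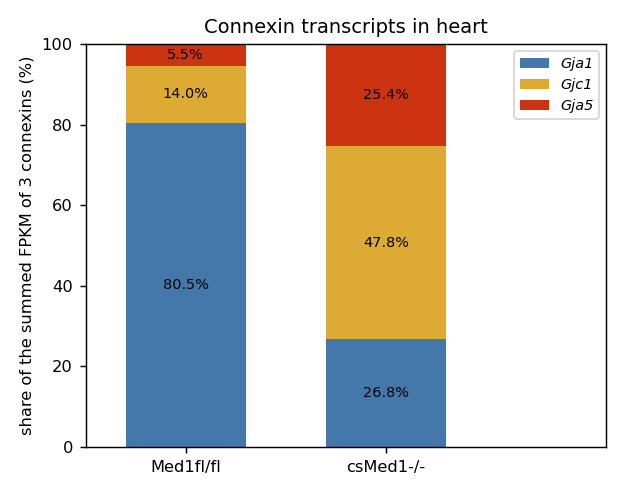
Share of Gja1 (blue), Gjc1 (yellow, 2 rows summed) and Gja5 (red) in their summed FPKM, in percent, in the pooled Med1fl/fl and csMed1-/- libraries. The blue part is 80.5% of the control bar and 26.8% of the csMed1-/- bar.

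Ordered by level, the genes were Kcnh2, Hcn2, Kcnq1, Hcn4, Gjc1, Gja5 and Scn4b in control. In csMed1-/- heart the order was Kcnh2, Kcnq1, Hcn2, Gjc1, Gja5, Hcn4 and Scn4b. Kcnh2 at the top and Scn4b at the bottom were the same, and Hcn4 went from the fourth place to the sixth. By its second row alone (4.64 FPKM) Gjc1 lay below Gja5 (5.33 FPKM) in csMed1-/- heart. In csMed1-/- heart Hcn2 (10.5 FPKM) and Gjc1 (10.0 FPKM) were close, and without replicates their order is not established. Likewise Hcn4 (9.76 FPKM) and Gjc1 (9.34 FPKM) were close in control.

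**Figure D4:**
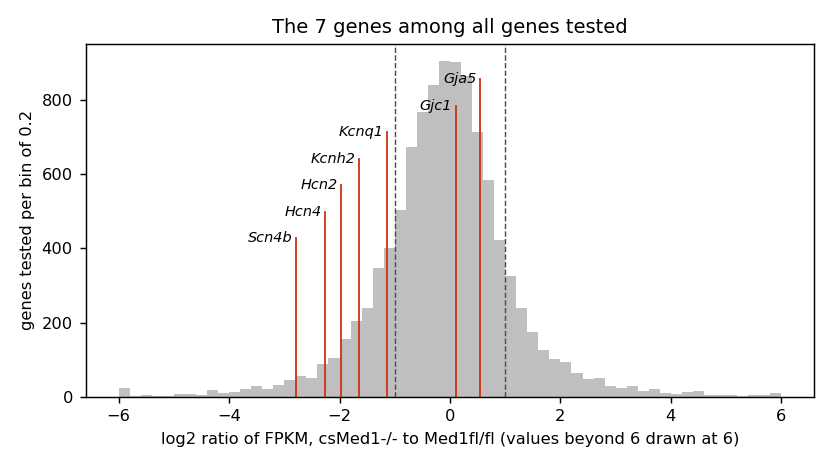
Histogram of the log2 ratio of FPKM, csMed1-/- to Med1fl/fl, over the 10489 genes tested in bins of 0.2, with the 7 genes as red lines whose height has no meaning and dashed lines at 2-fold. Scn4b (-2.79), Hcn4 (-2.26), Hcn2 (-1.97), Kcnh2 (-1.65) and Kcnq1 (-1.14) lie left of the lower line, and Gjc1 (0.10) and Gja5 (0.54) lie between the lines.

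Among 64 other tested genes of the channel and conduction lists, those with the log2 ratio closest to a member over the 2 libraries were Scn4a (-2.84) and Rangrf (-2.97) for Scn4b (-2.79). For Kcnq1 they were Usp2 (-1.10) and Fgf13 (-1.23). Etv1 (-1.46) was one of the closest pair for Kcnh2, and Scn10a (-2.13) one of that for Hcn4. For Hcn2 they were Cacna1c, the L-type calcium channel pore, at -1.89 and the connexin gene Gja3 at -1.88. For Gja5 they were Nkx2-5 (0.37) and Ankrd1 (0.28), and for Gjc1 the transcription factor genes Prox1 (0.11) and Gata4 (0.07). A likeness over 1 ratio says little of a shared pattern.

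Genes of the calcium cycle that works beside HCN channels in pacemaking were mostly lower too. Of 9 tested genes of that list 6 passed 2-fold downward and none upward, with a median log2 ratio of -1.29. Atp2a2, the calcium pump of the sarcoplasmic reticulum, was the lowest at -3.91. Among 17 tested transcription factor genes of the conduction system and chambers, 7 passed 2-fold downward and 1 upward, with a median of -0.43. With 1 FPKM required in both libraries these were 4 and 1 of 14, against 14.7% and 11.3% of all genes under that filter. Hopx, at 359 FPKM in control against 66.2 FPKM in the csMed1-/- pool, was the lowest of them, and Tbx20, at 2.40 and 6.96 FPKM, was the highest. Nkx2-5 had 146 and 188 FPKM. Of 13 tested scaffolds and regulators of channels 4 passed 2-fold downward and none upward, with Kcnip2 as the lowest (-6.66) and Cav3 as the highest (0.80).
Of 8 tested genes of the immature and stressed heart 4 were higher and 1, Hcn4 itself, was lower by more than 2-fold. One of the higher genes, Tnni1, passed the filter through the csMed1-/- pool alone. Nppa, the atrial natriuretic peptide gene, had 468 FPKM in control against 11100 FPKM in the csMed1-/- pool and was the highest of that list. Acta2 and Cacna1h were within 2-fold, with ratios below 1.

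Because Hcn4, Gja5 and Gjc1 belong to a few cell types, markers of those cells were set beside them. Of 8 atrial markers 4 could be tested, with 1 lower and 2 higher by more than 2-fold, and the list summed to 45.2 FPKM in control against 64.7 FPKM in the csMed1-/- pool. Myl4, the atrial essential light chain gene, had 7.44 and 55.2 FPKM (ratio 7.41) and Dkk3 had 0.965 and 3.16 FPKM (ratio 3.27), whereas Stard10 had 33.8 and 4.42 FPKM (ratio 0.131). Dkk3 passed the filter through the csMed1-/- pool alone, where it was high. With 1 FPKM required in both libraries 3 atrial markers remained, of which 1 was lower and 1 higher by more than 2-fold. Of all genes under that filter 14.7% were lower and 11.3% higher by as much. Myl7, the atrial regulatory light chain gene, had 1.42 and 1.10 FPKM and Sln had 0.356 and 0.174 FPKM, against 20500 and 6570 FPKM for the ventricular light chain gene Myl2. Bmp10 was listed at 0 in both libraries, and Nr2f1 and Nr2f2 were below 1 FPKM. The atrial markers thus differed in level and direction among themselves, and their part in the ratios of Hcn4 and Gja5 was not tested. Of 10 conduction system markers, which include the channel gene Cacna1g, 5 could be tested. All 5 had a ratio below 1, and 3 passed 2-fold, of which Tbx3 and Etv1 passed the filter through the control library alone. These 3 were also counted above, Tbx3 and Etv1 among the transcription factor genes and Cacna1g among the calcium cycle genes. The remaining tested markers, Cntn2 (ratio 0.672) and Smoc2 (ratio 0.569), were within 2-fold. With 1 FPKM required in both libraries 3 markers remained and 1, Cacna1g (12.2 and 5.88 FPKM), was lower by more than 2-fold, against 14.7% of all genes under that filter. Over all 5 tested markers the median log2 ratio was -1.06, and the list of 10 summed to 75.3 and 41.3 FPKM. Tbx3, a regulator of the nodes, had 2.18 and 0.858 FPKM, Shox2 was near 0 and Isl1 and Vsnl1 were listed at 0. The part of these cells in the Hcn4 ratio was not tested.
Of 8 arterial endothelial markers, Gja4 among them, 7 could be tested, of which 1 passed 2-fold upward and none downward, with a median log2 ratio of 0.14 and sums of 76.0 and 113 FPKM. None of them was at 0. Of 8 general endothelial markers 3 were lower by more than 2-fold, and the median was -0.58, with sums of 703 and 636 FPKM. The medians of both lists thus differed in sign, and the part of these cells in the Gja5 ratio was not tested. Smooth muscle and pericyte markers had a median of 0.90 and sums of 2550 and 5970 FPKM, and fibroblast markers had a median of 0.94 and sums of 503 and 1190 FPKM. In each of these lists 4 of 8 genes were higher and 1 lower by more than 2-fold.
Macrophage markers had a median of 0.55 over 7 tested genes. Neural and skeletal muscle markers had 3 tested genes each, with medians of -0.69 and -3.10. With 1 FPKM required in both libraries 1 neural marker and no skeletal muscle marker remained. The 3 skeletal muscle genes thus each passed the filter only through the library where they were higher.
Of 10 structural genes of cardiomyocytes 8 could be tested, with 3 lower and none higher by more than 2-fold and a median log2 ratio of -0.64. Actc1 and the joint row of Myh6 and Myh7 were listed at 0 in control and at 9190 and 647 FPKM in csMed1-/- heart. Cardiomyocytes all use such genes, so a 0 there can be a failed estimate, and no ratio was formed. When all ratios were centred on the median of the 8 structural genes, the remaining lower genes stayed past 2-fold, with Kcnh2 at -1.01, Hcn2 at -1.32, Hcn4 at -1.61 and Scn4b at -2.15. Under that centring 8.17% of all genes tested were lower by more than 2-fold.

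**Figure D5:**
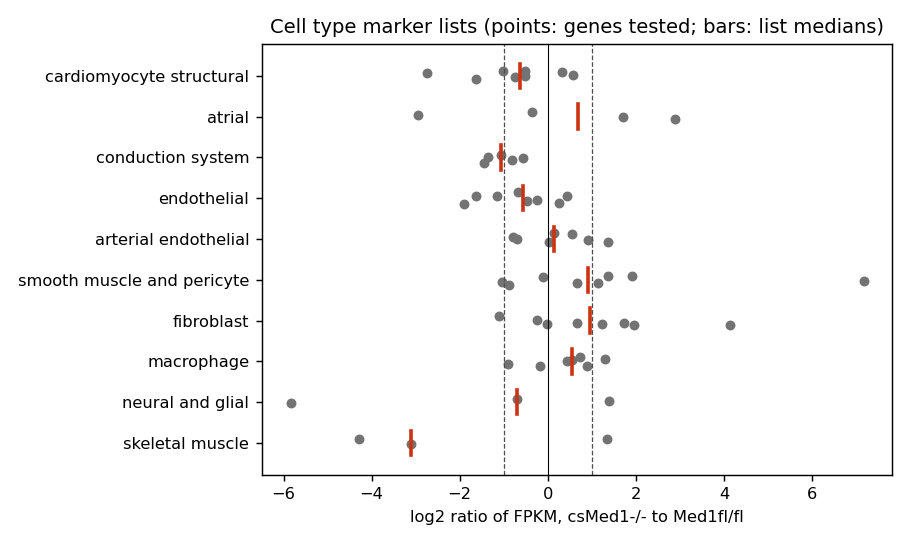
Log2 ratio of FPKM, csMed1-/- to Med1fl/fl, of tested marker genes in 10 cell type lists (grey points, spread vertically at random within a list), with the list median as a red bar and dashed lines at 2-fold. The conduction system markers all lie below 0, and the fibroblast and smooth muscle medians lie near 1.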

How the data were processed

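Strand-specific mRNA libraries, 1 per genotype from 5 pooled hearts, were sequenced with single reads of 50 nt. The authors mapped them to mm10 with TopHat v2.0.8b, and the deposited FPKM values come from Cufflinks v2.1.1 and cuffdiff with a UCSC annotation. The submitters' processing notes also name STAR, Bowtie2 and DESeq2, with no role given. Which library scaling and which strand setting were used is not given in the sources used here.

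Rows sharing a symbol were summed, and the change is the plain ratio of FPKM. Genes with neither library at 0 and at least one at 1 FPKM were tested against the 2-fold threshold that the study states. The study also determined differential expression by cuffdiff with an FDR cutoff. No such cutoff was used here, so these calls are not those of the study. With 1 library per genotype there was no test. The members and lists were chosen with earlier results of these data known. Named were the 7 members, Med1, all tested genes of the 4 channel lists, and of other lists the lowest and highest ratio and the 2 with the highest control FPKM, and the 2 closest in ratio to each member. Further atrial and conduction markers, 4933417O13Rik, Tnni1, Acta2, Cacna1h, Kcnq1ot1, Actc1 and the Myh6 and Myh7 row were added after their values were seen. Some genes that this rule names are counted in their lists and are not reported here by name.

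Reads were estimated from the spacing of low FPKM times length (transcripts over 1500 bases, less 200 bases), with lengths from GENCODE M21 (GRCm38) and positions and promoters from RefSeq (GRCm38.p6). This is a rough estimate, since the step was blurred and values did not pile up at 2 steps. The computation was tested on simulated data. Scripts ran in Python 3.11.15 (pandas 2.3.3, numpy 2.4.6, scipy 1.17.1, matplotlib 3.10.9).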

Additional observations from a re-analysis of the deposited data

How the results depend on the processing

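With a threshold of 4-fold in place of 2-fold, 2 of the 7 genes (Scn4b and Hcn4) were lower, against 5.14% of all genes tested. With 1.5-fold the count of 5 stood, against 29.7% of all genes tested. Centring on the 8 cardiomyocyte structural genes raised all log2 ratios by 0.64, left 4 genes lower by more than 2-fold, moved the median of the 7 genes from -1.65 to -1.01 and put 1 gene, Gja5, above 2-fold. Under that centring 8.17% of all genes tested were lower and 31.7% higher by more than 2-fold, against 18.0% and 13.6% without it. Pseudocounts of 0.1 and 1 FPKM, centring on the median of all genes, scaling to the 75th percentile or to the sum without the 100 highest genes, and other filters left the 5 lower genes lower by more than 2-fold, except that Scn4b was left out where 1 FPKM was required in both libraries. Under that last filter 14.7% of all 9160 genes were lower and 11.3% higher by more than 2-fold. Scn4b, the gene with the lowest values, moved most, to a log2 ratio of -1.46 with a pseudocount of 1. Gja5 ranged from 0.44 to 1.18. Gjc1 was 0.97 by its first row alone and -0.51 by its second, which is the higher row over both libraries. The single-row readings and the list counts with 1 FPKM in both libraries were chosen after seeing the data. No paired analysis was possible because each genotype has 1 library. Variation between libraries cannot be estimated here, and about 180 reads stand behind the lowest value of Scn4b.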
